A study of Homo sapiens with 6 samples.

Results

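The genes described here are 10 transcription factors that direct white blood cell lineages: SPI1, CEBPA, CEBPB, RUNX1, RUNX3, IKZF1, IRF8, PAX5, EBF1 and TCF7. They were chosen by name, with earlier results of these data known, and they are 10 of 19864 protein-coding genes on chromosomes 1 to 22 and X. The cells were K562, a human line derived from a chronic myeloid leukaemia, grown without any treatment. Each of 3 groups had 2 replicate cultures at least 3 passages apart. The first group was made by the published PRO-seq procedure with 3 affinity purifications from 1M permeabilized cells, the second by qPRO-seq, a streamlined procedure with 1 purification, also from 1M cells, and the last by qPRO-seq from 250k cells, with 14 cycles of PCR where the others had 11. Their peak lists are called the PRO-seq list, the qPRO-seq list and the 250k list below. PRO-seq labels nascent RNA in permeabilized cells, so that RNA polymerases caught in transcription can be mapped, and dREG is a classifier that calls active promoters and enhancers as peaks from the pattern of these reads on both strands.

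Blood cell fate is set by small sets of DNA-binding factors that switch on the genes of one lineage and hold back those of others. SPI1 (PU.1) and the C/EBP factors CEBPA and CEBPB drive granulocyte and monocyte programmes, RUNX1 is needed for the first blood stem cells and for platelets, and IRF8 steers monocytes and dendritic cells. IKZF1 (Ikaros) acts in lymphoid progenitors, EBF1 and PAX5 fix B cell identity, and TCF7 (TCF-1) and RUNX3 act in T cells. A gene whose promoter is in use is transcribed in both directions near its start, and that is the pattern dREG scores.

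Each group had 1 peak list for its 2 libraries, which leaves no replicate spread to compare with, and no test between groups was made. Lengths were 24707 peaks in the PRO-seq list, 38177 in the qPRO-seq list and 15562 in the 250k list. The number of reads behind each list is unknown. A start peak was a peak within 500 bp of any transcript start that GENCODE release 29 annotates for the gene, on build GRCh38. The dREG score has no unit, and the score percentile of a peak is the share of peaks in its own list with a lower score. Scores themselves were never compared between lists, and percentiles also depend on how long a list is.

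Start peaks were present for SPI1, CEBPB, RUNX1, IKZF1 and TCF7 in all 3 lists, for CEBPA and EBF1 in both 1M lists, and for RUNX3, IRF8 and PAX5 in none. By list, 7 of the 10 genes had a start peak in PRO-seq, 7 in qPRO-seq and 5 in the 250k list. Over all protein-coding genes the shares were 52.9%, 54.5% and 44.0% in the same order. With 10 genes the Wilson 95% intervals ran from 39.7% to 89.2% in the 1M lists and from 23.7% to 76.3% in the 250k list, and all of them held the value for all genes. These intervals cover counting error alone. The 5 genes with a start peak in all 3 lists compare with 43.1% of protein-coding genes, and the 3 with none compare with 43.5%. At equal list length, with each list reduced to its 15562 top-scored peaks, the counts were 6, 4 and 5 of 10 against 47.0%, 42.4% and 44.0% of all genes. EBF1 was lost from both 1M lists under that rule, and IKZF1 and TCF7 were lost from qPRO-seq.

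**Figure D1:**
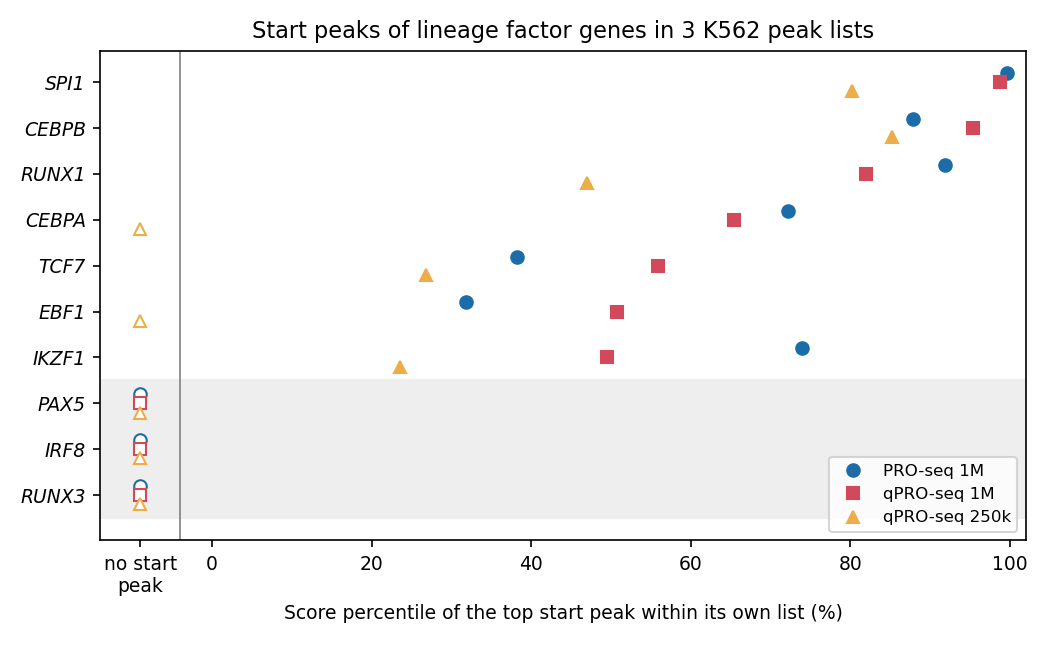
Score percentile (%) of the top start peak of each gene within its own list, for the 3 lists; open symbols at the left stand for genes with no start peak in that list. SPI1 and CEBPB sit at 80.2 or higher in every list, and PAX5, IRF8 and RUNX3 have no start peak.

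Promoter sequences are printed for genes with and without start peaks, so that both kinds can be read side by side. They are the stretches before RefSeq starts (build GRCh38.p14) that overlap no GENCODE exon, from windows of 300 bases. Capitals mark the TATA box core TATAAA, the CCAAT box and the GC box core GGGCGG, the last a site of SP1, on either strand. No base below lies in more than 1 match. CEBPA (chr19:33302565-33302784, minus strand), RUNX1 at its internal promoter P2 (chr21:34888700-34888949, minus strand) and IKZF1 (chr7:50304466-50304668, plus strand) had a peak in the window in both 1M lists, and RUNX1 in the 250k list too. RUNX3 (chr1:24930277-24930526, minus strand) and PAX5 (chr9:37034269-37034518, minus strand) had none in any list.
CEBPA: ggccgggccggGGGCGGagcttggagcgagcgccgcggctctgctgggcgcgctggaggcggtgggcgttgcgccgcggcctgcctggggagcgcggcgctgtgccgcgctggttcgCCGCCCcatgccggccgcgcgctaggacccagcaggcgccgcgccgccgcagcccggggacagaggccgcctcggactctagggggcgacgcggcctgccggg
RUNX1: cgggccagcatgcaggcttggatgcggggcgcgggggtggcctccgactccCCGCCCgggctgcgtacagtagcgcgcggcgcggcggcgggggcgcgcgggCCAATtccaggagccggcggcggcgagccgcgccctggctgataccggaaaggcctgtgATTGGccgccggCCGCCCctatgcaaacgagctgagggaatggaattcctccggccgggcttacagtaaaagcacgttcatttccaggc
IKZF1: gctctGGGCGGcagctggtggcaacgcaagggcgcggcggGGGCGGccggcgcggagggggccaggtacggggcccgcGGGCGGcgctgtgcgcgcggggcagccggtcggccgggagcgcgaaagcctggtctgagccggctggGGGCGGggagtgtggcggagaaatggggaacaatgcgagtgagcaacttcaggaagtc
RUNX3: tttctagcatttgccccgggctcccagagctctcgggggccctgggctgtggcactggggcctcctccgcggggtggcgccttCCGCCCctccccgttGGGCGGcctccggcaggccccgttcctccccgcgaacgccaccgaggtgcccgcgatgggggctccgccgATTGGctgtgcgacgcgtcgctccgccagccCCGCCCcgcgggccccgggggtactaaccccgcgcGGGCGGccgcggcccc
PAX5: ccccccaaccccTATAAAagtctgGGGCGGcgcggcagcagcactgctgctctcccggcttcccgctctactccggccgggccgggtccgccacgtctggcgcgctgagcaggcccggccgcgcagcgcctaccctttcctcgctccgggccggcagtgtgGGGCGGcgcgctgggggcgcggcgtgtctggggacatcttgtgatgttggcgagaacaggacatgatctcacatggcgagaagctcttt

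RefSeq windows were found for 9 of the 10 genes, 15 windows in all. SPI1 was the gene without one, so its promoter is not among the windows described here. The 2 windows of CEBPB share bases, as do the 2 of IRF8, so the 15 are not independent. A peak of at least 1 list overlapped 5 of the 15, belonging to CEBPA, CEBPB (2 windows), RUNX1 and IKZF1. Those 5 had a GC content of 71.0% to 80.7% and 31 to 50 CpG dinucleotides, and each held GGGCGG. The 10 windows without a peak ranged from 35.3% to 76.0% GC and from 0 to 38 CpG, and 4 held GGGCGG. Over 34961 RefSeq windows the median was 58.7% GC and 14 CpG. GGGCGG was in 45% of all windows, CCAAT in 34.6% and TATAAA in 11.5%. TATAAA occurred in 1 window each of CEBPA (in the part not printed) and CEBPB, which had peaks, and in 1 window each of PAX5, TCF7 and IKZF1, which had none. The RUNX3 window printed above, at 76.0% GC and 38 CpG, and that of PAX5, at 65% GC and 30 CpG, had no peak but lay above both medians as the windows with peaks did. The start peaks of TCF7 and EBF1 lay outside the RefSeq windows. Letters of lineage factor sites, searched on both strands, were counted too. GAGGAAGT (an SPI1 site) was in 0 of the 15 windows and 2.59% of all RefSeq windows, AGATAA (a site of the GATA family) in 1 and 10.3%, and TTGCNNAA (a C/EBP site) in 1 and 10.4%. TGTGGT (a RUNX site) was in 3 of the 15 and 13.1% of all, and CCCNNGGG (an EBF site) in 4 and 19.1%. A match of these letters describes the sequence and not a bound site.

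SPI1 (ENSG00000066336.11, minus strand), the master factor of myeloid cells, had the highest-ranked promoter of the 10 genes in both 1M lists. Its start peak lay on chromosome 11 at 47378161 to 47378940 in PRO-seq (score 1.26, percentile 99.7), at 47378211 to 47378820 in qPRO-seq (score 1.18, percentile 98.8) and at 47378431 to 47378790 in the 250k list (score 0.788, percentile 80.2). SPI1 was thus near the top of both 1M lists and lower in the other one. Among genes with a start peak, the top start peak of SPI1 was above that of 99.2% of genes in PRO-seq, 96.8% in qPRO-seq and 66.7% in the 250k list. The authors' peak centres lay 13, 13 and 16 bp downstream of the nearest annotated start. All 4 annotated starts of the gene had a peak within 500 bp in every list, and no other gene's start lay within 500 bp of these peaks. Of the 8565 other protein-coding genes with start peaks in all 3 lists, those closest to SPI1 in the 3 percentiles were UBE2N, CTDSPL2 and METAP1D. Their largest differences from SPI1 were 0.519, 1.15 and 1.15 percentile points.

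CEBPB (ENSG00000172216.5, plus strand), a C/EBP factor of monocytes and of the acute inflammatory response, came next. Its top start peak stood at percentile 87.9 in PRO-seq, 95.4 in qPRO-seq and 85.2 in the 250k list, which was the highest of the 10 genes in that last list. The peaks holding its single annotated start lay on chromosome 20 at 50190641 to 50191220, 50190601 to 50191040 and 50190531 to 50191190. In the 1M lists the initiation zone was split into 2 and 3 adjoining peaks, over 800 and 1120 bp, and in the 250k list it was 1 peak of 660 bp. The start of the antisense RNA CEBPB-AS1 lies 764 bp from that of CEBPB, within 500 bp of the top peak in each list. This put CEBPB above 72.2%, 86.7% and 74.7% of genes with a start peak. Peaks carry no strand, so the share of either transcript in them cannot be told apart.

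CEBPA (ENSG00000245848.2, minus strand), which commits progenitors to granulocytes, had 1 start peak at 33302321 to 33302780 on chromosome 19 in PRO-seq (percentile 72.2) and 1 at 33302381 to 33302750 in qPRO-seq (percentile 65.4). No start peak of CEBPA was listed in the 250k list, where the nearest peak lay 70457 bp away, beside the start of its relative CEBPG. Its 1M peaks ranked above the top start peak of 43.1% and 27.5% of genes with one, and their centres were 16 and 26 bp upstream of the single annotated start. The divergent RNA CEBPA-DT starts 293 bp from CEBPA, within 500 bp of both peaks.

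RUNX1 (ENSG00000159216.18, minus strand), a core-binding factor subunit, had the most start peaks of the 10 genes, 6 in PRO-seq, 8 in qPRO-seq and 3 in the 250k list, at several of its alternative promoters. It is read from a distal promoter, P1, and from P2, which lies 161 kb further along the gene and encodes proteins that begin differently. The top P2 peak, at 34888571 on chromosome 21 in every list, ended at 34889230 in PRO-seq, 34889090 in qPRO-seq and 34888990 in the 250k list. It stood at percentiles 91.9, 82.0 and 46.9, above the top start peak of 81.3%, 52.7% and 26.9% of genes with one. The P1 peak lay at 35049221 to 35049570, 35048961 to 35049640 and 35049191 to 35049510, and stood at 8.33, 46.2 and 14.1. P2 ranked above P1 in each of the 3 lists. Around P2 the peaks ran on: 4 peaks spanned 2170 bp in PRO-seq and 6 spanned 3050 bp in qPRO-seq, while the 250k list had 2 separate ones.

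The longest annotated RUNX1 transcript starts 955 kb upstream of P1. A peak lay within 500 bp of that start in both 1M lists, at percentiles 13.7 and 5.35, and none did in the 250k list. Its centres were 453 and 433 bp from this RUNX1 start and 218 and 238 bp from the start of LINC01436 on the other strand. In all, 7 of the 15 distinct RUNX1 starts had a peak within 500 bp in PRO-seq, 8 in qPRO-seq and 6 in the 250k list. Over the 10 genes, 22 of 90 distinct starts had a peak in all 3 lists and 62 had a peak in none. The same share over the starts of all protein-coding genes was not counted, and starts close together share a peak. These counts therefore cannot be read as high or low.

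IKZF1 (ENSG00000185811.18, plus strand), the zinc-finger factor Ikaros, had 2 start peaks in each list, all at the first of its 5 groups of starts (starts at most 1000 bp apart were joined to a group). The upstream peak lay on chromosome 7 at 50303671 to 50304270 in PRO-seq, 50303891 to 50304150 in qPRO-seq and 50303881 to 50304150 in the 250k list, with percentiles of 73.9, 43.1 and 23.5. The downstream peak was centred at 50304630, 50304580 and 50305040 and stood at 60.1, 49.5 and 6.76. The top start peak of IKZF1 was above that of 45.9%, 15.4% and 9.98% of genes with one. The order of the pair differed: the upstream peak ranked higher in PRO-seq and the 250k list, and the downstream peak in qPRO-seq. With peaks limited to p of at most 0.01, the upstream peak of the 250k list dropped out, and the top percentile of IKZF1 there was 2.22 in place of 23.5. The downstream 250k peak overlapped the one of PRO-seq but not the one of qPRO-seq. Of 16 distinct starts of IKZF1, 8 had a peak within 500 bp in every list and the other 8 had none in any list.

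EBF1 (ENSG00000164330.16, minus strand), the early B cell factor, counted as having a start peak in both 1M lists, but no peak held one of its starts. The peak shared by both lists lay at 159100091 to 159100570 on chromosome 5 in PRO-seq (percentile 31.9) and at 159100151 to 159100580 in qPRO-seq (percentile 50.7), above the top start peak of 9.09% and 16.2% of genes with one. Its centres were 639 and 559 bp upstream of the nearest EBF1 start, and 83 and 163 bp from the start of LINC02202, a long noncoding RNA on the opposite strand, which lay inside both peaks. With the limit of 0.01 on p, the PRO-seq percentile was 21.2. A further PRO-seq peak, at percentile 21.3, was centred 563 bp inside the gene. In the 250k list the nearest peak was 108140 bp away, at the start of RNF145. With the rule that a start must lie inside the peak, EBF1 alone was lost, which left 6, 6 and 5 of the 10 genes in PRO-seq, qPRO-seq and the 250k list, against 50.4%, 51.3% and 41.0% of all protein-coding genes.

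TCF7 (ENSG00000081059.19, plus strand), a T cell factor that carries Wnt signals, had 1 start peak in each list on chromosome 5: 134114461 to 134114760 in PRO-seq (percentile 38.2), 134114251 to 134114780 in qPRO-seq (percentile 55.9) and 134114371 to 134114720 in the 250k list (percentile 26.8). GENCODE gives this gene 21 distinct starts, and 3 of them had a peak within 500 bp, the same number in each list. These 3 are the most upstream ones, from 134114711 to 134115201. The other 18 had none. They include the internal starts of shorter transcripts and also the rest of the first group of starts, which runs on to 134115956. The top start peak of TCF7 was above that of 11.7%, 19.6% and 11.7% of genes with a start peak. A peak at its most upstream starts was thus called in every list but ranked low in each. With the limit of 0.01 on p, its 250k percentile was 15.1.

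**Figure D2:**
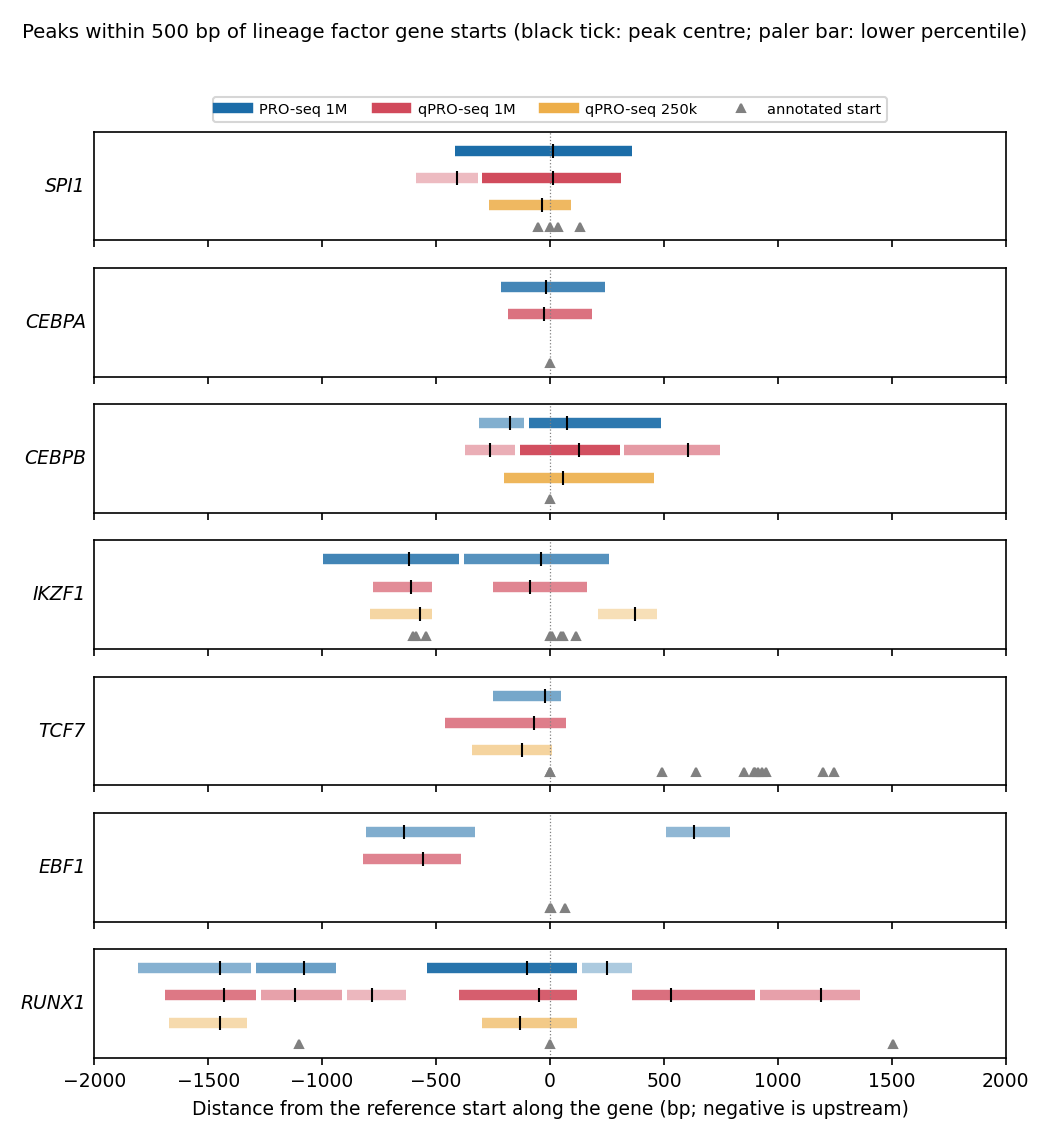
Start peaks of the 7 genes that have any, as bars from peak start to peak end, with distance from a reference start along the gene on the x axis (bp); colour gives the list, paler bars have lower percentiles, black ticks are the authors' peak centres and grey triangles annotated starts. Bars of SPI1, CEBPB and TCF7 overlap in all 3 lists, and the EBF1 bars lie to either side of its starts.

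RUNX3, IRF8 and PAX5 had no start peak in any list, and the nearest peaks were far off. For RUNX3 (ENSG00000020633.18, chromosome 1, 24899511 to 24965121) the nearest peak to a start lay 183208 bp away in PRO-seq, 115490 bp in qPRO-seq and 183298 bp in the 250k list, and no peak of any kind lay within 100 kb of the gene. For PAX5 (ENSG00000196092.12, chromosome 9, 36833275 to 37034185) the distances were 45236, 45146 and 45266 bp, to a peak shared by the lists at the start of the noncoding gene EBLN3P. For IRF8 (ENSG00000140968.10, chromosome 16, 85898803 to 85922609) they were 22498, 22318 and 98953 bp. A window of 1000 bp around starts added none of the 3. Absence from a list says that no peak was called, and the smallest signal that could have been called is unknown. In RNA from many cells at once, transcription in few cells and weak transcription in all of them cannot be told apart.

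Distal peaks were those over 500 bp from every annotated transcript start and within 100 kb of 1 of the 10 genes. There were 13 in PRO-seq, 44 in qPRO-seq and 8 in the 250k list. At least 1 lay near 6, 7 and 4 of the 10 genes, against 54.0%, 75.2% and 38.0% of all protein-coding genes. The median gene of the 10 had 1, 2 and 0 distal peaks, which were also the medians over all genes. RUNX1 carried 5, 22 and 4 of them and IKZF1 carried 3, 8 and 2. CEBPA and RUNX3 had none in any list. Without RUNX1 there were 8, 22 and 4. Counting a peak only where the nearest annotated start belonged to the gene left 5, 20 and 4, and lists of equal length left 4 in PRO-seq and 11 in qPRO-seq.

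**Figure D3:**
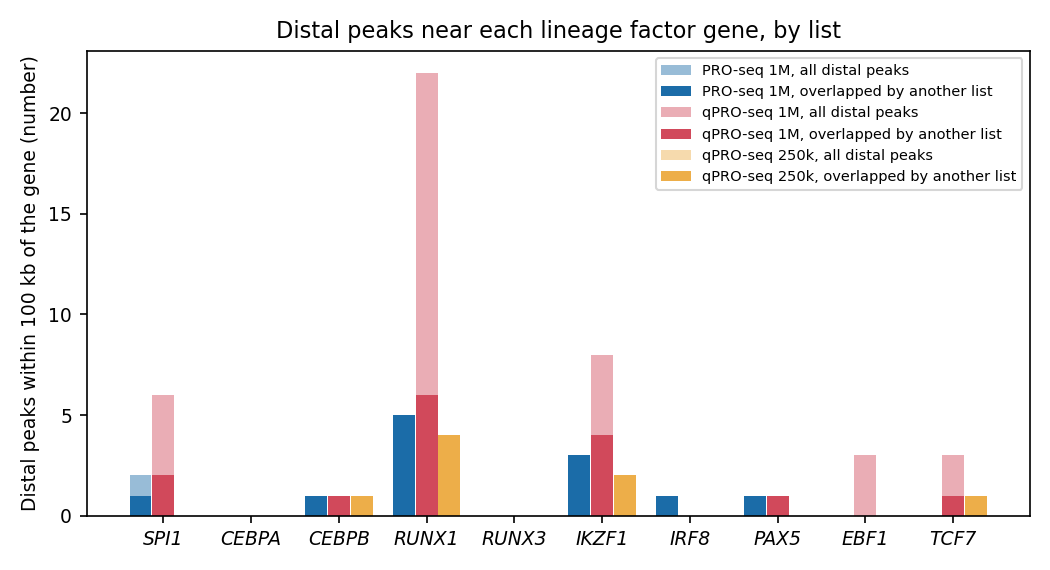
Number of distal peaks within 100 kb of each of the 10 genes, by list; pale bars count all distal peaks and the solid part those that a peak of another list overlaps. RUNX1 in qPRO-seq, with 22, stands highest, and 16 of those 22 were overlapped by no other list, against 53.5% of all distal peaks of qPRO-seq.

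Of the 44 distal qPRO-seq peaks, 11 (25%, Wilson 95% interval 14.6% to 39.4%) had a PRO-seq peak on top of them, against 42.4% over all distal peaks of that list. With RUNX1 left out the count was 6 of 22. The 250k list overlapped 9 (20.5%, 11.2% to 34.5%), where all distal peaks gave 24.4%. At equal list length that share was 72.7% of 11 peaks, and 53.3% over all distal peaks left in the list. In the other direction, 12 of 13 PRO-seq distal peaks (92.3%, 66.7% to 98.6%) and 8 of 8 from the 250k list (67.6% to 100%) were overlapped by qPRO-seq, against 86.9% and 93.3%. Peaks near 1 gene are not independent, so these intervals are too narrow. In qPRO-seq, 29 of the 44 (65.9%) were in that list alone, against 53.5% of all its distal peaks. The median percentile of the 44 was 33.6, where all distal peaks of the list had 39.6.

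RUNX1 is annotated over 1217 kb, so its window was far longer than the others, and per 100 kb it held 0.353 distal peaks in PRO-seq, 1.55 in qPRO-seq and 0.282 in the 250k list. The medians over all protein-coding genes were 0.33, 0.812 and 0. Between P1 and P2 there was 1 distal peak in PRO-seq, 5 in qPRO-seq and 1 in the 250k list. The one shared by all 3 lists lay 22.3 to 22.4 kb downstream of P1, in the intron at 35026631 to 35027200, 35026611 to 35027160 and 35026671 to 35027130, and stood at percentiles 80.9, 86.3 and 64.1. Upstream of P1, within the longest transcript, there were 3, 15 and 3 distal peaks, and 2 of each list were shared by all. The closest of these, at 35051221 to 35051670 in qPRO-seq, lay 2.04 kb upstream of P1. It stood at percentile 19.2 in PRO-seq, 91.2 in qPRO-seq and 51.8 in the 250k list, above the P1 peak itself in every list. Of the 15 in qPRO-seq, 11 were in that list alone, against 53.5% of all distal peaks of the list.

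**Figure D4:**
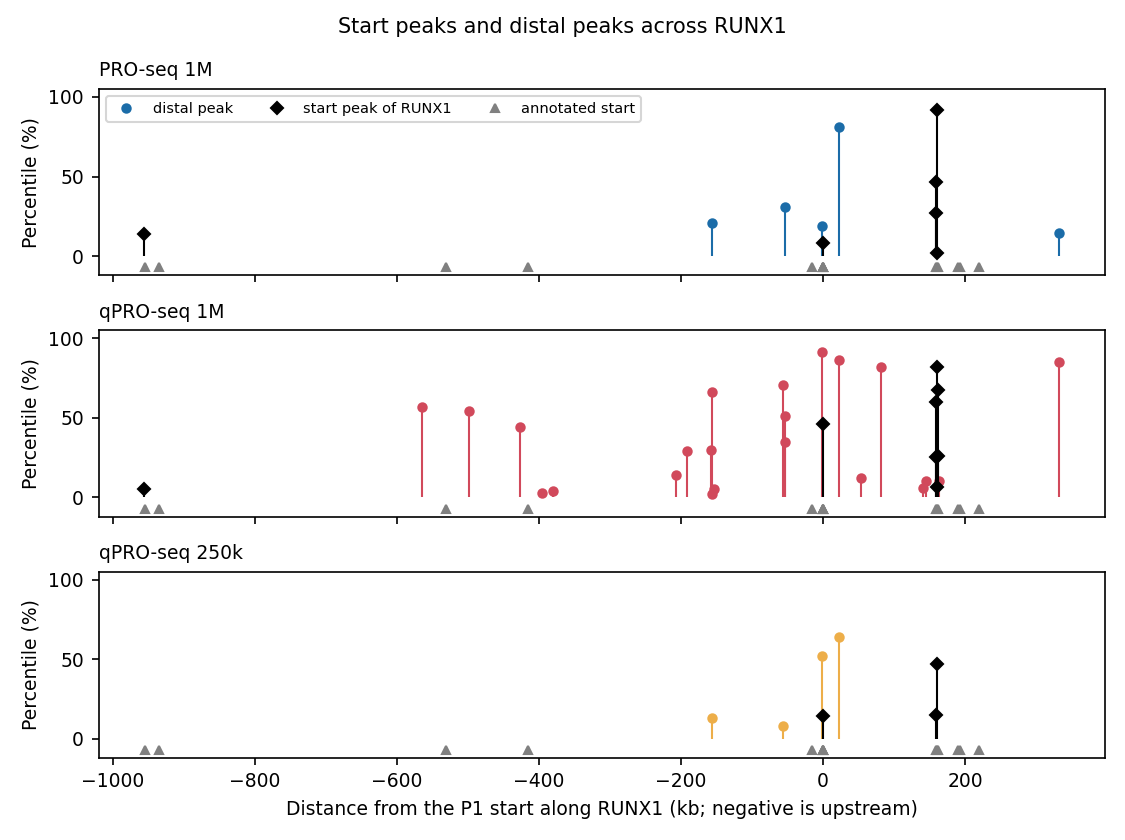
Peaks across RUNX1 in each list, with distance from the P1 start along the gene on the x axis (kb) and score percentile on the y axis (%); coloured circles are distal peaks, black diamonds start peaks and grey triangles annotated starts. The tallest P2 peak at 161 kb stands above the P1 start peak at 0 kb in all 3 panels, and upstream of P1 qPRO-seq has 15 distal peaks where the other lists have 3 each.

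IKZF1 had distal peaks in each list, all of them in its own introns. The peak at 50359951 to 50360410 in qPRO-seq was found in all 3 lists, at percentiles 40.1 in PRO-seq, 74.9 in qPRO-seq and 55.3 in the 250k list. It lay 7.47 kb upstream of the last annotated IKZF1 start and inside the gene. Per 100 kb the IKZF1 window held 0.997, 2.66 and 0.664 distal peaks, more than 82.8%, 89.0% and 85.0% of protein-coding genes had.

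CEBPB had 1 distal peak per list, in its single exon and 1.65 to 1.69 kb downstream of its start: 50192321 to 50192610 in PRO-seq (percentile 34.6), 50192101 to 50192710 in qPRO-seq (percentile 84.4) and 50192201 to 50192560 in the 250k list (percentile 39.1). In each list this distal peak was closer to the start of CEBPB-AS1 than to that of CEBPB. Another PRO-seq peak, at percentile 53.1, also overlapped the qPRO-seq one but lay within 500 bp of an annotated start, so it did not count as distal. SPI1 had 2, 6 and 0 distal peaks, and per 100 kb its 2.68 in qPRO-seq was above 89.1% of genes, much as for IKZF1. Of the 6, 1 lay inside SPI1. The top one in both 1M lists lay 21.7 kb upstream of SPI1, at 47400091 to 47400410 in PRO-seq (percentile 60.2) and 47400131 to 47400380 in qPRO-seq (percentile 49.0), in an intron of the noncoding gene AC090559.1. Its nearest protein-coding start was that of SLC39A13, so the 100 kb rule does not tie it to SPI1.

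Near PAX5 and IRF8, which had no start peak, distal peaks were few and lay outside the genes. PAX5 had 1 in each 1M list, at 36765981 to 36766320 in PRO-seq (percentile 62.6) and 36765971 to 36766330 in qPRO-seq (percentile 62.4), between genes and nearest to the protein-coding gene MELK. IRF8 had 1 in PRO-seq, at percentile 1.30. The overlapping peak of qPRO-seq, at percentile 37.4, reached within 500 bp of the start of LINC02132 and so did not count as distal. EBF1 had 3 in qPRO-seq alone, 1 of them inside the gene. The highest, at percentile 45.5, lay 20.3 kb upstream of the gene, at 159119851 to 159120190. TCF7 had 3 in qPRO-seq and 1 in the 250k list. The top one, at 134249661 to 134250090 (percentile 82.5 in qPRO-seq and 8.66 in the 250k list), lay downstream of TCF7 and nearest to the protein-coding start of PPP2CA.

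The labels call K562 a lymphoblastoid line, so marker genes of several blood lineages were counted in the same way. Over all protein-coding genes, 52.9% had a start peak in PRO-seq, 54.5% in qPRO-seq and 44.0% in the 250k list. Of 14 erythroid markers, 12 had a start peak in PRO-seq, 13 in qPRO-seq and 11 in the 250k list, HBA1 being without one. The top peak of HBE1 also lay near starts of HBG2 and OR51B5, and that of NFE2 near the start of COPZ1. Unlike the other marker lists, the erythroid list includes transcription factors, such as TAL1 and KLF1. Of 12 B cell markers, 2 had a start peak in each list. RAG1 was 1 of the 2, in a peak that also lay within 500 bp of the start of TRAF6. CD79A, CD79B and MS4A1, which define B cells, had none. Of 12 T cell markers, only CD4 had one, in qPRO-seq at percentile 0.422, and CD3D, CD3E and CD3G had none. Of 15 myeloid markers, 3, 2 and 1 had a start peak: CSF3R in PRO-seq alone, CD33 in both 1M lists and FUT4, beside the start of PIWIL4, in all 3. MPO, ELANE, CSF1R and CD14 had none. Of 10 megakaryocyte markers, ITGA2B and ITGB3 had one in every list. Promoters of SPI1 and CEBPB in all 3 lists, and of CEBPA in both 1M lists, were thus called where most listed myeloid markers were not.

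Partners and relatives of the 10 genes were counted in the same way. Of 22 myeloid partners and paralogues, 13, 13 and 10 had a start peak in PRO-seq, qPRO-seq and the 250k list, and the Wilson intervals held the shares over all genes. CBFB, the partner subunit of the RUNX factors in core-binding factor, stood at percentiles 95.4, 98.2 and 87.9. GFI1B, a transcriptional repressor that acts in erythroid and platelet-forming cells, stood at 98.4, 89.6 and 98.0, in a peak that also lay near the start of TSC1. CEBPG, the widely expressed C/EBP relative, had start peaks at 81.4, 88.8 and 78.8. ERG, FLI1, IRF4 and SPIB had none. MYB, a factor of blood progenitors, stood at 78.2, 92.1 and 13.8. RUNX2, the remaining RUNX gene, had a start peak in PRO-seq alone, at 53.8 and beside the start of AL096865.1.

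Of 30 lymphoid partners and paralogues, 16, 15 and 13 had a start peak. These shares, 53.3%, 50% and 43.3%, lay near those over all genes. The E protein genes TCF4 (87.0, 98.6 and 99.3), TCF12 (82.8, 94.4 and 96.2) and TCF3 (68.5, 76.0 and 62.6), whose products dimerize with tissue-specific partners, had one in all 3 lists. Of the Ikaros relatives, IKZF5, beside ACADSB, had one in all 3 lists, IKZF2 in both 1M lists and IKZF4 in PRO-seq alone, while IKZF3 (Aiolos) had none. LEF1, the closest relative of TCF7, had start peaks at 28.1, 46.1 and 14.6. BCL11B, GATA3 and POU2AF1 had none.

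**Figure D5:**
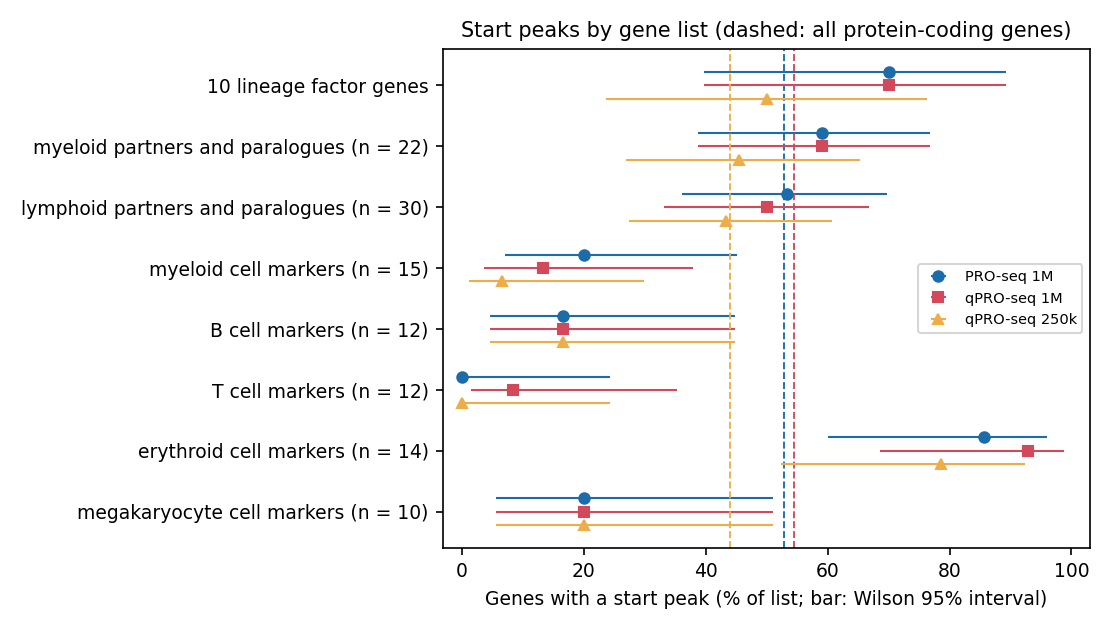
Share of genes with a start peak (%) in each gene list and peak list, with Wilson 95% intervals as bars and the shares over all protein-coding genes as dashed lines. Erythroid markers lie to the right of the dashed lines, and the myeloid, B cell, T cell and megakaryocyte markers to the left. The 10 lineage factors and their partners lie around the lines. In the 250k list the intervals of B cell markers (4.70% to 44.8%) and megakaryocyte markers (5.67% to 51.0%) held the share over all genes, 44.0%.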

How the data were processed

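Start peaks and distal peaks of 10 genes were counted in 3 lists of dREG peaks from K562 run-on libraries, 1 list for the 2 libraries of each group. Groups came from the sample titles, and each list was tied to its group by the sample descriptions. The peak score and the p-value (at most 0.05) are as the authors deposited them, without a header, and no source used here states whether the p-value is adjusted, how replicates were pooled or which dREG version was run. The submitters' processing notes name fastp 0.20.0, Bowtie2 2.3.5.1, deepTools 3.1.3, UMI-tools and build GRCh38 (hg38), with no role given. Per the labels' protocols, 1M libraries had 11 cycles of PCR and 250k libraries 14, and adapters carried random identifiers of 6 nt. Positions are printed counting from 1. Peaks on chromosomes 1 to 22 and X were used.

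Transcript starts came from GENCODE release 29 (primary assembly, GRCh38). A peak overlapped another when they shared at least 1 bp. Distal peaks were named by a rule: for each gene, the top-scored qPRO-seq 1M one found in all 3 lists, or else the top-scored one. For context lists, up to 8 genes with a start peak could be named by percentile, and markers without one. Genes like SPI1 were the 3 with the smallest largest percentile difference. NFE2, RUNX2, IKZF4, IKZF5, LEF1, the partners without a peak and the RUNX1 peak downstream of P1 were named after their values were seen. The members and lists were chosen with earlier results of these data known. Promoter windows were RefSeq's, 250 bases before to 50 after a start. Scripts used Python 3.11.15, pandas 2.3.3, numpy 2.4.6 and scipy 1.17.1, and were tested on simulated peaks. With 1 list per group no p-value was computed. 1 marker gene is not reported here.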

Additional observations from a re-analysis of the deposited data

How the results depend on the processing

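Of 53 alternative values for counts and shares over the 10 genes, 45 stayed within 1.5 times the reported count or within the Wilson interval of the share, and 8 moved beyond. Lists of equal length, which shorten both 1M lists by construction, lowered the genes with a start peak in qPRO-seq 1M to 4 and those with one in all 3 lists to 3. They also lowered distal peaks to 4 in PRO-seq 1M and 11 in qPRO-seq 1M, and raised the share of qPRO-seq 1M distal peaks overlapped by qPRO-seq 250k to 72.7%. Counting a distal peak only where the nearest annotated start belongs to the gene gave 5 in PRO-seq 1M, 20 in qPRO-seq 1M and 4 in qPRO-seq 250k, fewer by construction. The rule that a start lies inside the peak, gene bodies from GENCODE's basic transcripts and leaving out RUNX1 were chosen after seeing the data; basic transcripts gave 12, 32 and 6 distal peaks. A limit of 0.01 on p lowered all 19 start peak percentiles, by up to 21.3 points, and merging peaks within 500 bp lowered all 19, by up to 10.3 points. Both rules shorten the lists, and percentiles were recomputed among the peaks left. Merging keeps only the highest score of each merged group, so it favours lower percentiles by construction. No paired analysis was possible because each group has 1 list for both replicates, and no replicate could be left out for the same reason. The unknown read depth limits what an absent peak means.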
